A study of Mus musculus with 6 samples.

Results

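Transcripts of 7 genes for junctional and nectin-like adhesion receptors of lymphocytes, Jaml, Crtam, Cd96, Cd226, Tigit, Cadm1 and F11r, were followed across the Ikzf3 genotypes of mouse splenic T cells. All 7 were among the 25239 genes listed, and 5 of them were among the 12117 genes with enough reads to be tested. The genes were chosen with earlier results of these data in view. Jaml and Crtam were selected on counts that were lower with 2 N159S alleles than with none, and the other 5 were taken as members of the same receptor families. The comparison of Ikzf3 N159S/N159S with Ikzf3 +/+ is therefore a description for these genes, and no p is given for them in it.

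The libraries were made from poly(A) RNA of FACS-purified splenic TCRb+CD4+CD44-CD127+ T cells of C57BL/6 mice, with 2 libraries each from wild-type (Ikzf3 +/+), heterozygous (Ikzf3 +/N159S) and homozygous (Ikzf3 N159S/N159S) animals. Ikzf3 encodes Aiolos, a zinc finger transcription factor of lymphocytes, and N159S is a missense change carried on 1 or both alleles of the animals as a knock-in, so that it is present in every cell lineage that expresses Ikzf3. CD127, the interleukin 7 receptor alpha chain, stood in for CD62L in the sort because CD62L is low on the mutant cells, and the ages of the animals were not given in the sources used here. The study asked which transcripts differ between T cells of these genotypes.

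These receptors belong to the immunoglobulin superfamily and join lymphocytes to other cells. JAML, the product of Jaml, binds CXADR on epithelium and is known for costimulating T cells at epithelial surfaces. CRTAM binds CADM1, is induced on activated CD8 and NK cells and on a subset of CD4 T cells, and has been tied to their polarity and retention in tissue. CD226, CD96 and TIGIT compete for PVR and nectins, CD226 as an activating receptor and TIGIT as an inhibitory one, and F11r encodes JAM-A, a junctional adhesion molecule that also binds the integrin LFA-1.

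Jaml showed the lowest value relative to wild-type cells of the 5 tested genes, so its promoter is shown first, followed by that of Cd96, whose counts were nearly level over the genotypes. Each window holds 250 bases before and 50 bases after the gene start in RefSeq (GRCm38.p6), read 5' to 3' on the strand of the gene, and capitals mark GGGAA or its reverse complement, the core letters bound by Ikaros family zinc fingers. Jaml lies at chr9:45078933-45079232 on the plus strand for this window, and Cd96 at chr16:46120199-46120498 on the minus strand.
Jaml: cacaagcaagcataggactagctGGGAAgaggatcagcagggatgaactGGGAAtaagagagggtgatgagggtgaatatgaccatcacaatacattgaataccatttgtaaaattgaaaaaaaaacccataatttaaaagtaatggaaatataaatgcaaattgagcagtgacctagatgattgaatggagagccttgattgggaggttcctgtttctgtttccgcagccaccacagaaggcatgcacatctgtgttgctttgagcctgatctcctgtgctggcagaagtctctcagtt
Cd96: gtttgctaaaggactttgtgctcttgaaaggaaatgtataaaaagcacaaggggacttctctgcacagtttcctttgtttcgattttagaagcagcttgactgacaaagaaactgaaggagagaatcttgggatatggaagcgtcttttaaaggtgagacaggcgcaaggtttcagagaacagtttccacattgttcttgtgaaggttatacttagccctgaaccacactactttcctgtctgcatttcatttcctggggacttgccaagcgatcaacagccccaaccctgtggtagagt
The letters were searched on both strands. The Jaml window held GGGAA at 2 places, and both were also TGGGAA. No match was found in the windows of Cd96 and Tigit, and that of F11r held 2. Of 32851 mouse promoter windows of the same length, 62.7% held GGGAA and 25.6% held TGGGAA, so that a match is common and is a description of the letters only. Promoter windows matched for 4 of the 7 genes, and Crtam, Cadm1 and Cd226 were not matched.

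The libraries held 11696461 to 17317260 reads counted on genes, and 14803 to 18147 genes had at least 1 read. Ikzf3 itself, which the missense change need not alter in level, had normalized counts of 2332 ± 27.7 in wild-type cells, 2394 ± 165 in heterozygous cells and 2991 ± 58.0 in homozygous cells (SD, n = 2 each), so its level does not check the labels. Normalized counts are reads scaled by the TMM library size to the mean library. Of 7 pan T cell markers tested, 0 passed a false discovery rate (FDR) of 0.05 by edgeR's quasi-likelihood test in either comparison with wild-type cells (0 with 2 alleles and 1 with 1 allele had an unadjusted p under 0.05, and DESeq2 called 0), and their summed level was 3103 to 3581 CPM (reads per 1000000 of TMM library size) over the libraries. Xist was at 11640 normalized counts in heterozygous cells and at 13.3 and 24.1 in wild-type cells and homozygous cells, with the Y-linked Ddx3y at 16.1, 4630 and 4064 in the same order. The sex of the animals and the heterozygous genotype cannot be told apart in the comparisons that use those libraries. The study's methods give the animals per genotype over its B and T cell libraries together, and no source used here ties a library to an animal or says that the animals were littermates, so adjusted p-values measure the spread between these 6 libraries.

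The receptors spanned a wide range of levels when reads were divided by exon length. Cd96 was highest at a mean of 59.2 CPM per kb over the 6 libraries, higher than 91.4% of tested genes, and ran from 57.7 to 64.6. Cd226 followed at 11.5 CPM per kb, within 10.7 to 12.5, and did not overlap with Cd96 in any library. Tigit at 1.51, Crtam at 1.48 and Jaml at 1.38 CPM per kb were neighbours in this order whose ranges over libraries overlapped, from 1.04 to 2.05, from 1.05 to 2.14 and from 0.318 to 3.02. F11r at 0.0844 and Cadm1 at 0.0727 CPM per kb were higher than 0.613% and 0.495% of the tested genes and also overlapped. The order below Cd226 differed between genotypes, since Jaml had the highest level of the 3 middle genes in wild-type cells at 2.38 CPM per kb and the lowest in homozygous cells at 0.359.

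**Figure D1:**
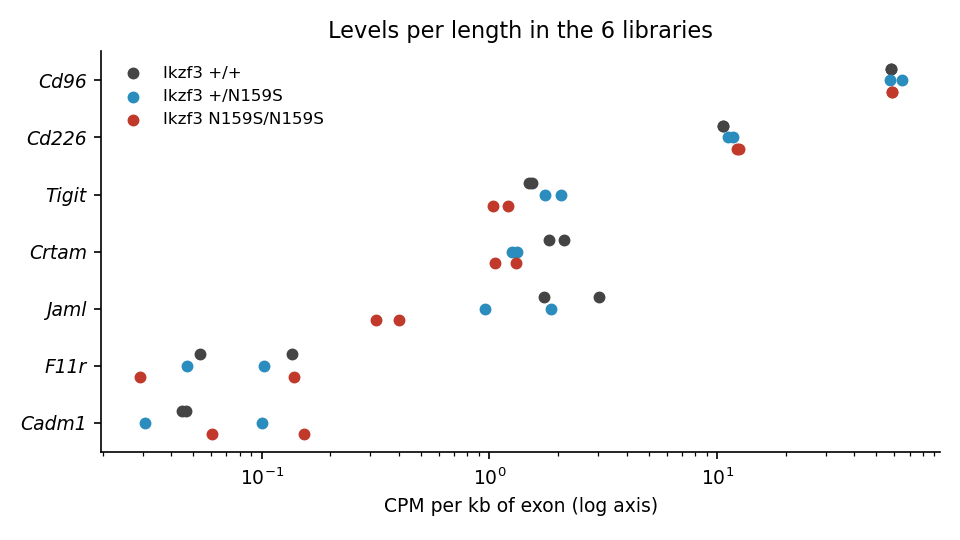
Each point is 1 library, placed by its CPM per kb of exon on a log axis, with the 7 receptor genes in rows and the genotypes in colours. Cd96 and Cd226 stand above the rest at means of 59.2 and 11.5, Jaml spreads most among the tested genes, from 0.318 to 3.02, and F11r and Cadm1 lie near the floor.

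Jaml, the receptor for CXADR, had the largest difference from wild type of the 5 tested genes. Its 13 annotated exons lie at chr9:45079183-45108534 on the plus strand (GRCm38). It had 90 and 66 reads in wild-type cells, 81 and 38 in heterozygous cells, and 14 in each of the homozygous libraries. As normalized counts these were 116 and 66.5, then 71.6 and 36.6, then 12.2 and 15.4. Both homozygous libraries were below all other libraries, whereas 1 heterozygous library was above the lower wild-type library.

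The mean of Jaml was 91.1 ± 34.8 normalized counts in wild-type cells, 54.1 ± 24.7 in heterozygous cells and 13.8 ± 2.23 in homozygous cells (SD, n = 2 each). Relative to wild-type cells, the means were 59.4% in heterozygous cells and 15.1% in homozygous cells. The summed reads gave Poisson 95% intervals of 74.8 to 103 for wild-type cells and 9.03 to 19.6 for homozygous cells, which cover counting error only. The fitted log2 fold change was −2.71 with a standard error (SE) of 0.45 in homozygous cells and −0.73 with an SE of 0.38 in heterozygous cells. The heterozygous value did not pass the test (edgeR quasi-likelihood, Benjamini-Hochberg adjusted p = 0.372), and it ran from −1.30 to −0.29 over the alternatives, the ends being without heterozygous replicate 1 and without wild-type replicate 1.

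Jaml thus had a larger log2 step between heterozygous cells and homozygous cells (−1.98, SE 0.46) than between wild-type cells and heterozygous cells. The 1-allele difference was 0.270 of the 2-allele difference on the log2 scale, and this share was 0.122 without heterozygous replicate 2, 0.128 without wild-type replicate 1 and 0.480 without heterozygous replicate 1. The distance of the heterozygous level from midway between wild type and homozygote on the log2 scale was 0.63 (SE 0.35) and did not pass the test (edgeR quasi-likelihood, adjusted p = 0.533), against 0.933% of all tested genes that did. The exons of Jaml overlap Gm10684 on the opposite strand, and the sources used here do not say whether counting used strand. Gm10684 had a mean of 0.0723 CPM, beside 3.54 CPM for Jaml.

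Crtam, the receptor for CADM1, had lower counts with either 1 or 2 mutant alleles. Its exons lie at chr9:40969691-41004628 on the minus strand, on the same chromosome as Jaml and Cadm1. It had 109 and 163 reads in wild-type cells, 115 and 100 in heterozygous cells, and 93 and 92 in homozygous cells, or 140 and 164, 102 and 96.4, and 81.0 and 101 normalized counts. Every library with a mutant allele was below both wild-type libraries, and the mutant genotypes overlapped each other.

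The mean of Crtam was 152 ± 17.0 normalized counts in wild-type cells, 99.0 ± 3.67 in heterozygous cells and 90.9 ± 14.1 in homozygous cells (SD, n = 2 each), or 65.1% and 59.8% of the wild-type mean in the mutant genotypes. The log2 fold change was −0.75 (SE 0.20) in homozygous cells and −0.62 (SE 0.20) in heterozygous cells, the latter with an adjusted p of 0.157 by edgeR's quasi-likelihood test. The step from heterozygous cells to homozygous cells was −0.13 (SE 0.21), and the 1-allele difference was 0.828 of the 2-allele difference on the log2 scale. This share was 0.700 without homozygous replicate 2 and 1.04 without homozygous replicate 1. Both differences use the wild-type libraries, which were part of the selection of Crtam. The departure from the midpoint was −0.25 (SE 0.18), which did not pass the test (edgeR quasi-likelihood, adjusted p = 0.645). Jaml and Crtam therefore differed in their fitted steps, but no test of the difference between these genes was made.

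Among the PVR-binding receptors, Cd96 had similar counts in the genotypes. It lies at chr16:46035657-46120251 on the minus strand and had 1478 to 2393 reads per library. The normalized counts were 1900 and 1892 in wild-type cells, 2114 and 1888 in heterozygous cells, and 1909 and 1926 in homozygous cells. The log2 fold change was 0.016 (SE 0.097) with 2 alleles and 0.078 (SE 0.096) with 1 allele, the latter with an adjusted p of 0.741 by edgeR's quasi-likelihood test. The homozygous libraries lay above both wild-type libraries. Their mean was 101.1% of the wild-type mean.

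Cd226, the activating receptor of this group, lies at chr18:89176967-89272229 on the plus strand. Its normalized counts were 717 and 718 in wild-type cells, 753 and 794 in heterozygous cells, and 821 and 843 in homozygous cells. The 3 genotypes did not overlap, in the order of the number of mutant alleles, as did 4.08% of all tested genes in the increasing direction. The means were 107.8% and 115.9% of the wild-type mean. The log2 fold change was 0.11 (SE 0.10) with 1 allele (edgeR quasi-likelihood, adjusted p = 0.643) and 0.21 (SE 0.10) with 2 alleles, and the departure from the midpoint was 0.0014 (SE 0.086). These values lay in the direction opposite to those of Jaml and Crtam.

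Tigit, the inhibitory receptor, had few reads. It lies at chr16:43648867-43664146 on the minus strand and had 16 and 21 reads in wild-type cells, 32 and 25 in heterozygous cells, and 19 and 13 in homozygous cells. The normalized counts were 20.6 and 21.1, then 28.3 and 24.1, then 16.5 and 14.3, so that the heterozygous libraries were highest and the homozygous libraries lowest, without overlap. The Poisson 95% intervals of the group levels, 14.7 to 28.8, 19.9 to 34.0 and 10.6 to 21.9, overlapped in every pair. The log2 fold change was 0.33 (SE 0.43) with 1 allele (edgeR quasi-likelihood, adjusted p = 0.755) and −0.43 (SE 0.45) with 2 alleles, so a difference was not detectable at this depth.

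Cadm1, the ligand of CRTAM, and F11r, the gene of JAM-A, were too low to be tested. Cadm1, at chr9:47530173-47857637 on the plus strand, had 3 and 4 reads in wild-type cells, 3 and 9 in heterozygous cells, and 6 and 12 in homozygous cells. F11r, at chr1:171437535-171464603 on the plus strand, had 4 and 2, 2 and 4, and 6 and 1 reads in the same order. Without a filter on low counts the log2 fold change with 2 alleles was 1.19 (SE 1.08) for Cadm1 and −0.099 (SE 1.71) for F11r, and no direction could be read from either.

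**Figure D2:**
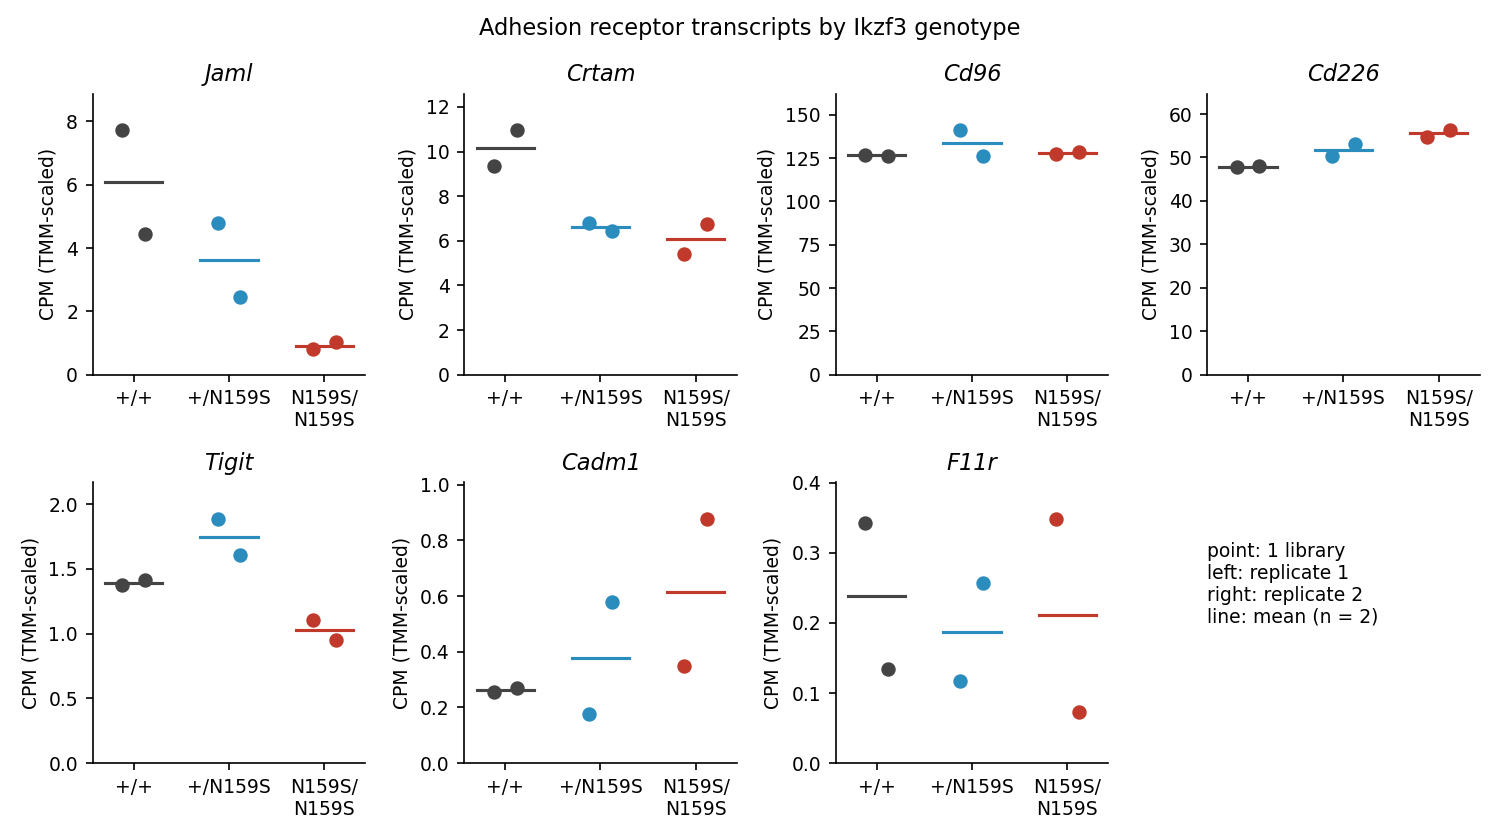
CPM of the 7 receptor genes by genotype, 1 panel per gene with its own axis from 0, where each point is 1 library and the line is the mean of 2. The homozygous points of Jaml sit at 0.814 and 1.02 CPM beside 7.72 and 4.44 in wild-type cells, Crtam is lower in all 4 libraries with a mutant allele, and Cd96 stays between 126 and 141.

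Counted over the 7 genes, 1 of the 5 that were tested (Jaml) was lower in homozygous cells at an FDR of 0.05 and 0 were higher, and these values chose Jaml. The same call was made for 2.10% of all tested genes in the lower direction and 3.10% in the higher. With 1 allele, 0 of 5 passed by edgeR's quasi-likelihood test, 1 (Crtam) had an unadjusted p under 0.05, and DESeq2 also called 0. The shares of all tested genes called there were 0.586% lower and 1.16% higher. The median log2 fold change of the 5 genes was −0.43 with 2 alleles and 0.078 with 1 allele, beside 0.00018 and 0.011 over all tested genes. The 2-allele median is the value of Tigit (SE 0.45), and Jaml and Crtam were selected as lower in that comparison. It is therefore no measure of the receptor families. Both comparisons share the wild-type libraries.

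Separation of the libraries was common. Jaml, Crtam and Tigit had both homozygous libraries below both wild-type libraries, as did 23.9% of tested genes, and Cd96 and Cd226 had both above, as did 24.3%. With 1 mutant allele, Crtam was below without overlap, a pattern of 22.1% of tested genes, and Cd226 and Tigit were above, a pattern of 25.0%. An exact two-sided permutation test of 2 libraries against 2 cannot go below a p of 0.333.

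**Figure D3:**
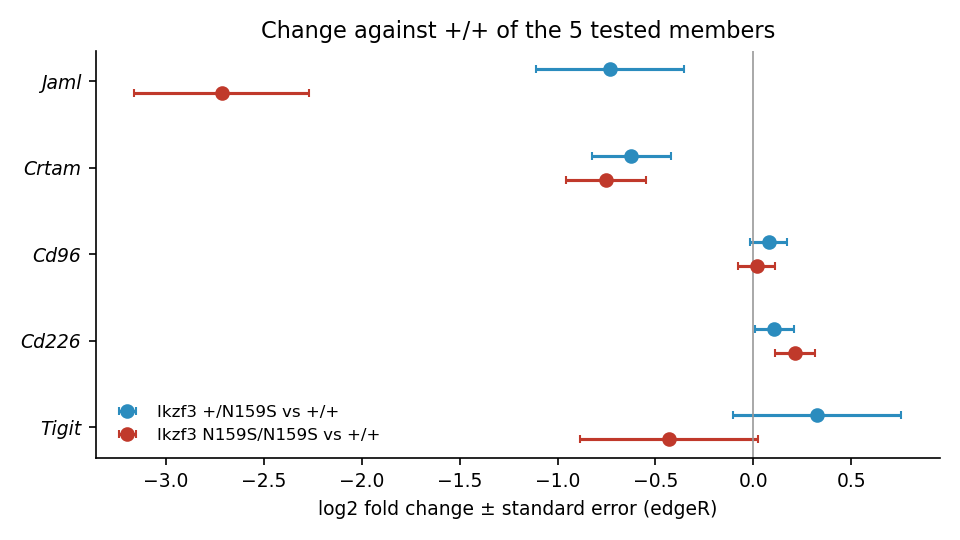
Log2 fold changes against wild-type cells with their standard errors from edgeR for the 5 tested genes, in blue for heterozygous cells and in red for homozygous cells. Jaml reaches −2.71 with 2 alleles but −0.73 with 1, the Crtam values of −0.75 and −0.62 lie together, and Cd96, Cd226 and Tigit stay between −0.43 and 0.33.

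Partners of the receptors were read from lists of ligands, relatives and adaptors. These lists, and the cytotoxic and marker lists, were chosen with earlier results of these data known. The p-values of their genes take no account of that choice. Of 8 ligands and counter-receptors in the files, 5 were tested, and 0 passed an FDR of 0.05 by edgeR's quasi-likelihood test in either comparison, while 2 with 2 alleles and 3 with 1 allele had an unadjusted p under 0.05 and DESeq2 called 0. Itgal and Itgb2, which encode the chains of LFA-1, had the most reads, with 9357 ± 663 and 9241 ± 153 normalized counts in wild-type cells. Their log2 fold changes in homozygous cells were −0.31 (SE 0.10) and −0.26 (SE 0.10). Pvr, the shared ligand of CD226, CD96 and TIGIT, was at 1198 ± 20.5 normalized counts in wild-type cells, 973 ± 33.3 in heterozygous cells and 1102 ± 9.40 in homozygous cells (SD, n = 2 each). The log2 fold change of Pvr was −0.30 (SE 0.096, edgeR adjusted p = 0.154) with 1 allele and −0.12 (SE 0.096) with 2. Cxadr, the ligand of JAML, had 15 to 36 reads per library and a log2 fold change of −0.48 (SE 0.44), and Nectin2 was at 0 in all 6 libraries.

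Of 13 other junctional and nectin-like genes in the files, 3 were tested and 0 passed in either comparison by edgeR's quasi-likelihood test (1 and 0 at an unadjusted p under 0.05, and 0 by DESeq2). Mpzl3, a relative of JAML, had 359 ± 23.3 normalized counts in wild-type cells, 336 ± 22.9 in heterozygous cells and 270 ± 21.8 in homozygous cells (SD, n = 2 each), a log2 fold change of −0.41 (SE 0.14) with 2 alleles. Jam3 and Cadm4 had log2 fold changes of −0.24 (SE 0.35) and 0.69 (SE 0.77).

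Among 24 adaptors and signalling partners in the files, 19 were tested. By edgeR's quasi-likelihood test 1, Tiam1, was lower in homozygous cells, beside 2.10% of all tested genes. There 7 had an unadjusted p under 0.05 in either direction. DESeq2 called 3, adding Lcp2 as lower and Stat3 as higher. In heterozygous cells 0 passed by edgeR, 5 had an unadjusted p under 0.05, and DESeq2 called 1. Tiam1, a Rac exchange factor that binds CADM1, had 122 and 152 normalized counts in wild-type cells, 113 and 98.3 in heterozygous cells, and 57.5 and 60.3 in homozygous cells. Its genotypes did not overlap, and it fell by 1.22 on the log2 scale with 2 alleles (SE 0.22, edgeR quasi-likelihood, adjusted p = 0.00857). The call was lost without wild-type replicate 2 (adjusted p = 0.0885) and without homozygous replicate 1 (adjusted p = 0.0505), both by edgeR. With 1 allele its log2 fold change was −0.38 (SE 0.21, edgeR adjusted p = 0.408). Rap1b, Arrb2, Prkcq and Fyn, the highest of the list per length, had log2 fold changes with 2 alleles of 0.02, 0.06, −0.17 and −0.19.

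CRTAM marks CD4 cells with a cytotoxic program, and 8 genes of that program were read beside it. Of these, 5 were tested and 0 passed in either comparison by edgeR's quasi-likelihood test, while 2 in each had an unadjusted p under 0.05 and DESeq2 called 1 with 2 alleles and 0 with 1. Prf1, encoding perforin, was at 441 ± 153, 374 ± 76.7 and 395 ± 33.4 normalized counts in wild-type cells, heterozygous cells and homozygous cells (SD, n = 2 each). Eomes, a transcription factor of cytotoxic lymphocytes, was at 56.3 ± 28.7, 48.4 ± 1.03 and 39.5 ± 15.6. Gzma, a granzyme, was at 6.24 ± 0.273 in wild-type cells and 40.0 ± 8.55 in homozygous cells (log2 fold change 2.66, SE 0.71, edgeR adjusted p = 0.0555). The chemokine gene Ccl5 was at 20.4 ± 0.303, 41.0 ± 2.04 and 7.55 ± 3.28, and the granule gene Nkg7 at 11.8 ± 7.56, 34.7 ± 17.8 and 4.47 ± 4.77, both highest in heterozygous cells and lowest in homozygous cells, unlike Crtam.

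Markers of cells outside the CD4+CD44- sort were read beside the receptors. The 10 CD8 and NK cell markers summed to 36.0 to 48.2 CPM in wild-type cells, 33.3 to 35.5 in heterozygous cells and 17.1 to 17.8 in homozygous cells. By edgeR's quasi-likelihood test 1 of 6 tested was lower in homozygous cells, beside 2.10% of all tested genes. There 4 had an unadjusted p under 0.05 in either direction, and DESeq2 called 2. With 1 allele 0 passed by edgeR or DESeq2, and 2 had an unadjusted p under 0.05. Klrd1 and Cd8b1 were the largest parts of this sum in wild-type cells, at means of 17.6 and 16.6 CPM. Cd8b1, the CD8 beta chain, fell by 2.65 on the log2 scale (SE 0.29, edgeR quasi-likelihood, adjusted p = 0.00038), from 301 and 197 normalized counts in wild-type cells to 47.0 and 30.7. It had 186 and 131 in heterozygous cells. The higher library was the same as for Jaml in wild-type cells and heterozygous cells. In homozygous cells it was not, where Jaml was at 12.2 and 15.4. With 2 libraries per genotype, nothing is read from this order. Cd8a was at 27.0 and 69.5 in wild-type cells, 69.8 and 69.4 in heterozygous cells, and 18.3 and 15.4 in homozygous cells. Klrd1, an NK receptor chain, was at 264 ± 77.3, 197 ± 46.7 and 146 ± 0.275 (log2 fold change with 2 alleles −0.85, SE 0.22, edgeR adjusted p = 0.0522, and called by DESeq2). Tyrobp, an NK and myeloid adaptor, had the opposite sign, at 10.5 ± 2.18, 23.8 ± 6.36 and 26.1 ± 4.92 (log2 fold change 1.28, SE 0.50, edgeR adjusted p = 0.197). Ncr1, which defines NK cells, had 0 to 8 reads per library. In bulk RNA, fewer cells of a type and less RNA per cell cannot be told apart, and the part of CD8 or NK cells in the Jaml and Crtam values was not tested.

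The summed level of the 10 regulatory T cell markers had the same order of genotypes as Tigit, at 203 to 215 CPM in wild-type cells, 247 to 262 in heterozygous cells and 156 to 172 in homozygous cells. Of these markers, 2 were lower in homozygous cells and 1 was higher in heterozygous cells. Foxp3, the defining factor, was at 136 ± 46.2, 351 ± 143 and 124 ± 54.7 normalized counts in that order of genotypes. Single markers differed in their order, with Foxp3, Il2ra, Ctla4 and Nrp1 ordered as Tigit, Ikzf2, Tnfrsf18 and Tnfrsf9 lowest in wild-type cells, and Izumo1r, Lrrc32 and Gpr83 highest there. The B cell markers summed to 189 to 292, 511 to 836 and 129 to 197 CPM, and 5 of 10 tested were higher in heterozygous cells and 2, Cd79a and Ms4a1, were lower in homozygous cells. The effector and memory markers summed to 308 to 327, 320 to 341 and 267 to 272 CPM. The means of both sums had the order of Tigit too, with overlap between some genotypes, so that order was not particular to regulatory T cell markers. The part of regulatory T cells in the Tigit values, and of B cells in the values of any of the receptors, was not tested. Of the naive T cell markers, 3 of 11 tested were lower and 1 was higher in homozygous cells and 2 were lower in heterozygous cells, and of 12 effector and memory markers 2 were lower in homozygous cells and 3 higher in heterozygous cells. Of 8 myeloid, 1 platelet and 2 erythroid markers tested, 0 passed by edgeR or DESeq2 in either comparison (3 myeloid markers with 2 alleles, and 2 myeloid and 1 erythroid marker with 1 allele, had an unadjusted p under 0.05). The platelet genes Ppbp and Gp1bb and 4 globin genes were at 0 in all libraries, and 1 of 6 gamma delta T cell markers was in the files, at up to 0.579 CPM.

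**Figure D4:**
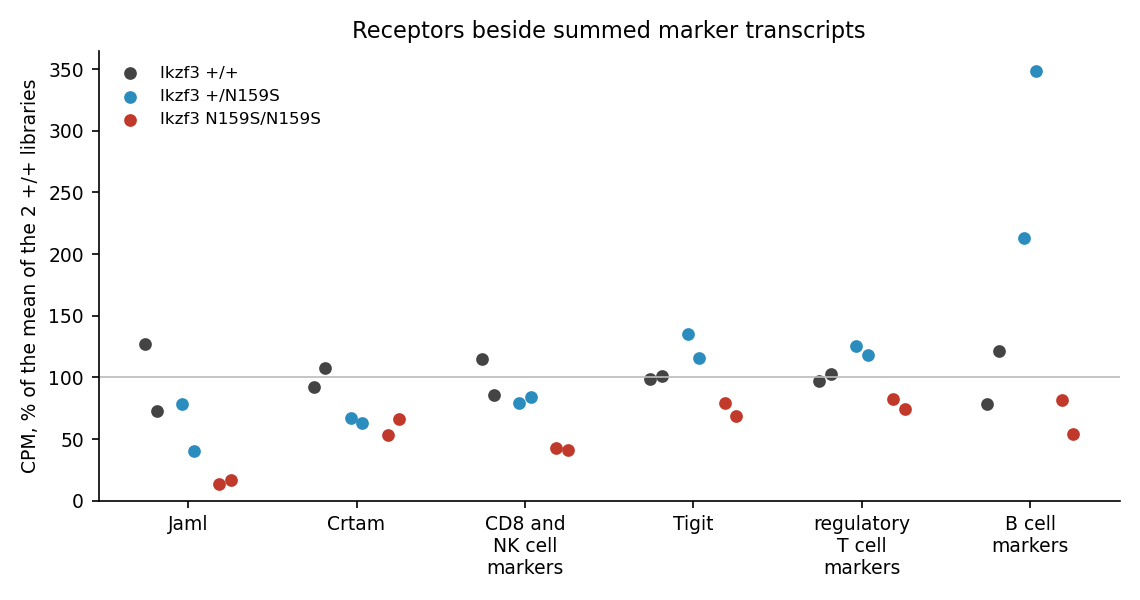
CPM of Jaml, Crtam and Tigit and summed CPM of 3 marker lists, each as a percentage of its mean in the 2 wild-type libraries, with 1 point per library. Jaml and the summed CD8 and NK markers are both lowest in homozygous cells. The markers are at 17.1 to 17.8 CPM there, beside 36.0 to 48.2 in wild-type cells. Klrd1 and Cd8b1 are the largest parts of that sum, at means of 17.6 and 16.6 CPM in wild-type cells, and Tyrobp has the opposite sign. Tigit, the regulatory T cell markers and the B cell markers are all highest in heterozygous cells.

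The genes around Jaml and Crtam were compared in the same way. Of 16 genes in the files with a start within 250 kb of that of Jaml, 10 were tested. By edgeR's quasi-likelihood test 2 were lower in homozygous cells, beside 2.10% of all tested genes. There 3 had an unadjusted p under 0.05, and DESeq2 called 1. In heterozygous cells 0 passed by edgeR or DESeq2, and 1 had an unadjusted p under 0.05. Il10ra, the interleukin 10 receptor alpha chain, started 190 kb downstream and had 522 and 575 normalized counts in wild-type cells, 512 and 643 in heterozygous cells, and 365 and 354 in homozygous cells. It fell by 0.61 on the log2 scale (SE 0.14, edgeR adjusted p = 0.0267). Tmprss13, a membrane serine protease gene 240 kb downstream, had 12 and 13 reads in wild-type cells, 16 and 11 in heterozygous cells, and 1 and 0 in homozygous cells (edgeR adjusted p = 0.021). The ratio of homozygous cells to wild-type cells for Tmprss13 was 0.0344 with a 95% counting interval of 0.00084 to 0.21. Both calls were lost when any 1 library of the compared genotypes was left out, with edgeR adjusted p of 0.0686 to 0.179 for Il10ra and 0.101 to 0.149 for Tmprss13, and DESeq2 did not call Tmprss13 (adjusted p = 0.0554).

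Closer to Jaml, Mpzl3 started 24 kb upstream, and the CD3 genes Cd3e, Cd3d and Cd3g started 69.6, 97.4 and 98.8 kb upstream. The CD3 genes had log2 fold changes of −0.30, 0.04 and −0.11 with SE of 0.14, 0.09 and 0.10 in homozygous cells and were not called. BC049352, 103 kb downstream, was at −0.76 (SE 0.37). Of 7 genes within 250 kb of Crtam, 3 were tested and 0 passed by edgeR with 1 or 2 alleles (2 and 0 at an unadjusted p under 0.05, and 1 and 0 by DESeq2), the nearest tested being Ubash3b at −0.02 (SE 0.12), 157 kb upstream.

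**Figure D5:**
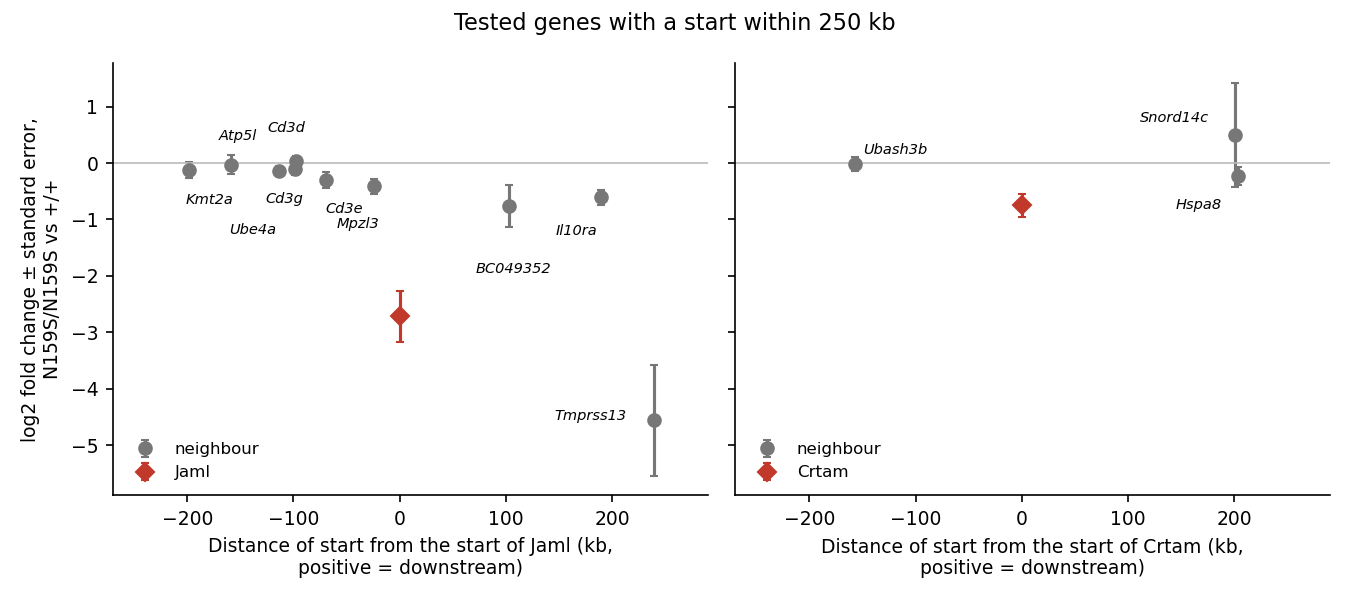
Log2 fold change of homozygous cells against wild-type cells, with its standard error, for each tested gene by the distance of its start from that of Jaml (left) or Crtam (right) in kb. The CD3 genes upstream of Jaml lie between −0.30 and 0.04, Il10ra and Tmprss13 downstream lie at −0.61 and −4.56, and the neighbours of Crtam lie between −0.22 and 0.50.

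Genes with a pattern like that of Jaml were found by Pearson correlation of log2 CPM over the 6 libraries, among 10409 genes. These values are descriptions, since all points share libraries, depth and genotype. They are also the highest of many values over only 6 libraries, so a high r and a shared order of genotypes follow from the search. The same search for Cd96, whose counts were nearly level, reached an r of 0.993 (Pskh1). Scp2 (r = 0.996), Asrgl1 (0.994), Runx1 (0.993), Trim12a (0.990) and Rasgrp1 (0.989) were most like Jaml. Their log2 fold changes in homozygous cells lay between −0.46 and −0.16, beside −2.71 for Jaml. Runx1, a transcription factor of T cell development, had 1686 ± 152 normalized counts in wild-type cells, 1543 ± 86.1 in heterozygous cells and 1223 ± 60.3 in homozygous cells (SD, n = 2 each).

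For Crtam the genes most alike included Gdap2 (r = 0.996), Slain1os (0.996), Apc (0.993) and Nup210 (0.992), and none of these was among the genes named for Jaml. Apc, a regulator of beta-catenin, had 3160 ± 60.0 normalized counts in wild-type cells and then 2703 ± 52.3 and 2620 ± 172. The search picked Apc for its likeness to Crtam, so a shared pattern over the genotypes follows from that choice. The log2 fold changes of these 4 genes with 2 alleles were between −0.51 and −0.24. Their sign follows from the same choice, since Crtam was selected as lower in homozygous cells.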

How the data were processed

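Read counts of 6 T cell libraries, 2 per genotype, were analysed, and the B cell libraries of the study were not analysed here. The authors trimmed reads with Trimmomatic 0.38.1, mapped them to mm10 with HISAT2 2.2.1 and default settings, counted them on refGene genes with HTSeq 2.0.2, and deposited raw counts per gene, with versions as the submitters' processing notes list them. Whether counting used strand is not given in the sources used here. Entries on no gene (15.8 to 20.0% of all entries) and other lines that name no gene stayed out of library sizes.

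The 7 genes, their partner lists and the marker lists were chosen with earlier results of these data known. Genes were kept by filterByExpr of edgeR 4.0.16 in R 4.3.3 (minimum count 10, minimum total 15), scaled by TMM (factors 0.979 to 1.03) and fitted with 1 coefficient per genotype over the 6 libraries. Quasi-likelihood p-values were adjusted by Benjamini-Hochberg over 12117 genes, with a threshold of 0.05. Gene positions and exon lengths came from GENCODE vM21, and promoters from RefSeq. Genes named were the 7 genes, partner genes past the threshold or highest per length, tested neighbours, the 5 genes most correlated with Jaml or Crtam (mean log2 CPM of at least 1, prior count 2), and markers. Other partner genes (Cxadr, Pvr, Mpzl3, Jam3, Cadm4, Nectin2) and the cytotoxic genes shown were named with their values known. Alternatives were DESeq2 1.42.0, its size factors, other filters, a replicate block, a term for the library of each genotype with more genes detected (the detection split), only the 2 genotypes compared, and each library left out. Alternatives for Tiam1, Il10ra, Tmprss13, Cd8b1 and Klrd1 were chosen after seeing the data. Some genes that the naming rule selects are not reported here. The test was checked on simulated counts. Replicates differed by more than sampling noise (chi-square per degree of freedom 10.4 to 13.5).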

Additional observations from a re-analysis of the deposited data

How the results depend on the processing

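In Ikzf3 N159S/N159S, where Jaml and Crtam were selected, log2 fold changes over 13 alternatives were −3.07 to −2.27 for Jaml and −0.90 to −0.60 for Crtam, and the selection on these libraries limits what their stability can show. With 1 allele, Jaml was past the threshold in 0 of 13 and Crtam in 1 of 13. The count of receptor genes lower in Ikzf3 N159S/N159S was 1 and became 2, with Crtam, without a filter on low counts and with a term for the detection split, and it ran from 1 to 2 with each library left out, 2 being without Ikzf3 +/N159S replicate 2. In Ikzf3 +/N159S it was 0 and became 1 with the detection split. Ligand, family and adaptor genes lower with 2 alleles numbered 1, then 2 by DESeq2 and 2 without a filter (Lcp2 added), 7 with the detection split, and 0 to 1 with each library left out, 0 being without Ikzf3 +/+ replicate 2 or Ikzf3 N159S/N159S replicate 1. The count of such genes that were higher was 0 and became 1, Stat3, by DESeq2, without a filter and with the detection split. Near zero, Cd226 turned from 0.0014 to −0.0096 against the midpoint with DESeq2's size factors, and Cd96 in Ikzf3 +/N159S ran from −0.0091 to 0.16 with each library left out. Over all genes, the 631 calls with 2 alleles became 1047 without a filter, 1760 with the detection split and 257 to 734 with each library left out, and the 212 with 1 allele became 341 by DESeq2, 710, 1385 and 83 to 251. The cause of these changes was not tested.

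Deviations of same-numbered libraries correlated at −0.167, −0.216 and 0.238. With 2 libraries per genotype, these values cannot tell whether the replicate numbers pair the libraries. The detection split does not follow the replicate numbers, since more genes were detected in replicate 1 of Ikzf3 +/+ and in replicate 2 of the mutant genotypes. With the replicate block, 495 and 149 genes were called with 2 alleles and with 1, Jaml was at −2.70 and Crtam at −0.75, and the number of receptor genes called was 1 and 0. Tigit, Cadm1 and F11r, with at most 32 reads in a library, limit what can be seen of them.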
